A study of Mus musculus with 27 samples.

Results

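Wild-type (WT) mouse embryonic fibroblasts were sequenced in both numbered fibroblast experiments of the series, and the 3 WT libraries of experiment 1 were set against the 3 WT libraries of experiment 2. These 6 libraries were chosen by their labels and are 6 of the 27 libraries of the series. Both groups carry the same description in the labels: strain C57BL/6, genotype WT, asynchronous primary embryonic fibroblasts of early passage, collected near confluence, with no treatment, deletion or transgene named. Both also share 1 growth and extraction protocol, 1 kit for the libraries and 1 set of processing notes. The labels do not give the age, number or body part of the embryos, nor whether libraries of a group came from separate embryos or cultures. All p-values therefore measure the spread between these libraries, part of which may be technical. Experiment is the only label that differs between the groups, so embryos, culture, RNA handling, library preparation and sequencing run cannot be told apart here. The other 15 fibroblast libraries are labelled KO and KO-NTD in experiment 1 and Het-NTD, Het and WT-NTD in experiment 2, with 3 libraries each. They take no part in the main comparison and are used where a gene is followed across the experiments. The labels do not explain NTD. The remaining 6 libraries come from Het and WT lungs of mice 10 days old.

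Primary embryonic fibroblasts are grown out of minced embryos. They are mesenchymal cells that make collagen-rich matrix, and they keep a record of their body position in the homeobox genes they express. Such cultures are not pure: embryonic macrophages, mesothelial cells, cartilage precursors and other attached cells can be carried over, and the mixture can differ from one preparation to another. The kit selects RNA with a poly(A) tail before sequencing. Ribosomal RNA has no such tail, and the messages of replication-dependent histone genes end in a conserved stem-loop in its place, so the selection depletes both.

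The deposited table gives counts per gene. Library totals were 47812341, 60156471 and 49465794 counts in experiment 1 WT, against 38297041, 37915240 and 34713673 counts in experiment 2 WT, within the range of 29730693 to 69517834 over all 27 libraries. Values below are CPM, counts scaled to library size over the 6 WT libraries unless another scaling is named, and each log2 change is experiment 1 WT over experiment 2 WT. Foxm1, the cell cycle transcription factor that the series is about, had 136, 143 and 139 CPM in experiment 1 WT, against 143, 144 and 148 CPM in experiment 2 WT. The log2 change was -0.06 with an SE of 0.05, a ratio of 0.958 with a 95% interval of 0.888 to 1.03, and an edgeR adjusted p of 0.369. Foxm1 lies at chr6:128362967-128376146 on the plus strand (GENCODE M21, GRCm38), and its exons overlap 4933413G19Rik on the same strand.

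The cultures carried fibroblast messages at like levels. Col1a1, a chain of type I collagen, had 17677, 13681 and 16989 CPM in experiment 1 WT and 19828, 17518 and 14772 CPM in experiment 2 WT, with an edgeR adjusted p of 0.563. All 15 listed fibroblast markers were tested, and their median log2 change was -0.06. 1 marker rose and 1 fell. Prrx1, a homeobox factor of limb and head mesenchyme, had 632, 681 and 732 CPM in experiment 1 WT, against 421, 553 and 484 CPM in experiment 2 WT. Dcn, the matrix proteoglycan decorin, had 58.9, 33.9 and 61.0 CPM in experiment 1 WT, against 117, 155 and 62.3 CPM in experiment 2 WT. The log2 changes were 0.49 for Prrx1 and -1.12 for Dcn, with edgeR adjusted p-values of 0.0125 and 0.0416. The Dcn call was lost in 5 of the 6 leave-one-out fits, which each left out 1 library, with edgeR adjusted p-values up to 0.182. The Prrx1 call was lost without experiment 1 WT 3, where the edgeR adjusted p was 0.0502.

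Sex was balanced between the groups. Xist, the RNA that coats the inactive X chromosome, had 454, 554 and 0.467 CPM in experiment 1 WT 1 to 3, against 522, 421 and 0.295 CPM in experiment 2 WT 1 to 3, scaled over all 27 libraries. Ddx3y, a helicase gene on the Y chromosome, had 0.0900, 0.128 and 100 CPM in experiment 1 WT, against 0.0823, 0 and 55.9 CPM in experiment 2 WT on that scale. Each group thus had 2 libraries with Xist and 1 with Y-linked messages, which was WT 3 in both. In each group WT 3 therefore came from another embryonic source than WT 1 and WT 2. Whether WT 1 and WT 2 shared a source is not shown by these genes.

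Of 14046 genes tested, 26.6% were called at an edgeR adjusted p under 0.05. 14.3% were higher in experiment 1 WT (2006 genes) and 12.3% were lower (1727 genes), and the median log2 change of all tested genes was -0.01. The CPM of the groups did not overlap for 45% of the tested genes, so a lack of overlap alone was common. Most of these differences were small. The median absolute log2 change of the called genes was 0.39, and 3380 of the calls lay under 2-fold. Changes of at least 2-fold were called for 0.876% of the tested genes in the higher direction (123 genes) and 1.64% in the lower (230 genes). Upper quartile scaling in place of TMM moved the split: 53.7% of the calls were higher under TMM and 41.6% under the upper quartile, with 3930 calls. Leaving out experiment 1 WT 3 lowered the counts to 1221 higher and 915 lower genes, and leaving out experiment 1 WT 2 lowered them to 1275 and 1019. The lower count was 1103 without experiment 1 WT 1 and 1125 without experiment 2 WT 1.

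**Figure D1:**
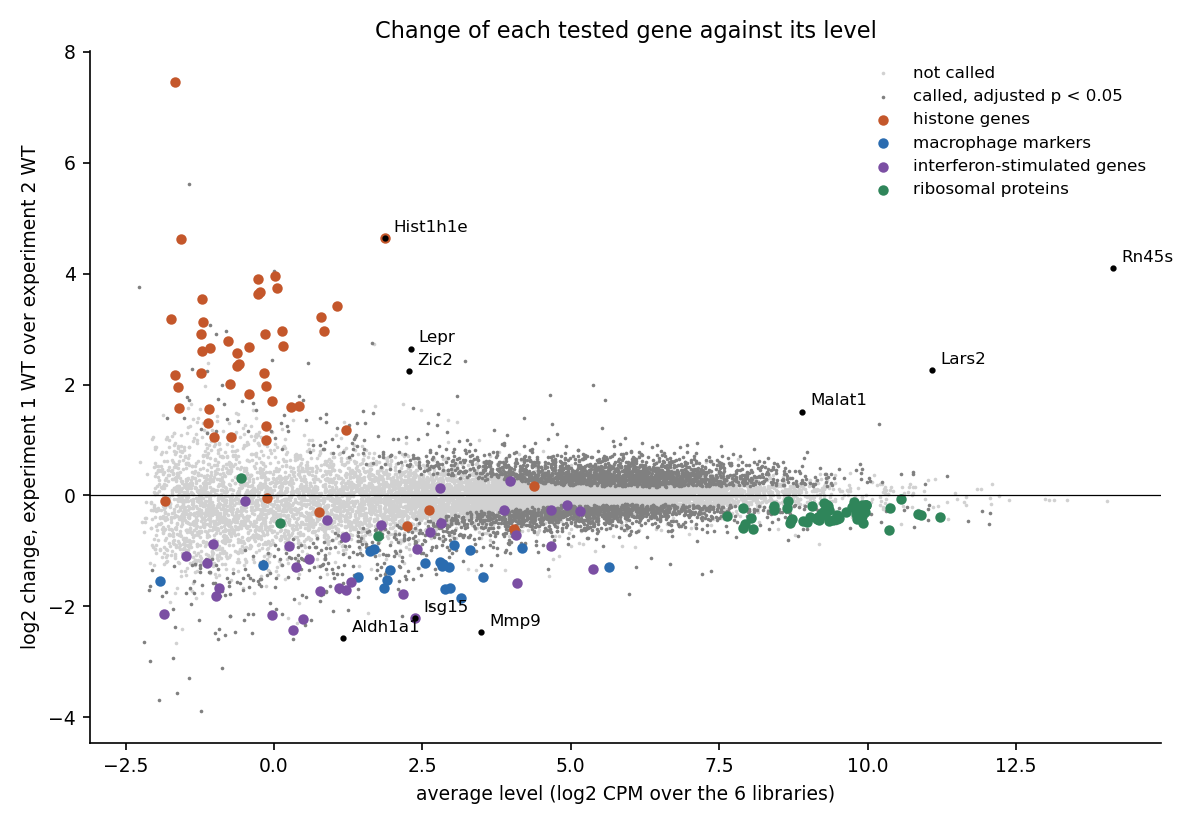
Log2 change of experiment 1 WT over experiment 2 WT (vertical axis) against the average log2 CPM of the 6 libraries (horizontal axis) for the 14046 tested genes; coloured points are members of 4 gene lists and labelled points are named genes. Histone genes and Rn45s lie above the body of points, macrophage and interferon-stimulated genes lie mostly below it, and ribosomal protein genes form a band a little under 0 at high levels.

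The distance between the groups was of the size seen between groups of 1 experiment. Over the 500 genes that differed most in each pair of libraries, the root mean square log2 difference between experiment 1 WT and experiment 2 WT averaged 2.10, with a range of 1.86 to 2.37. It averaged 1.46 within experiment 1 WT and 1.82 within experiment 2 WT. Within the other groups it averaged 2.79 in KO, 2.40 in KO-NTD, 1.32 in Het-NTD, 1.84 in WT-NTD and 1.87 in Het. Libraries of KO and of KO-NTD thus lay farther apart on average than the WT groups of the experiments. Experiment 1 WT stood 2.28 from experiment 1 KO and 2.21 from experiment 1 KO-NTD. Experiment 2 WT stood 1.85 from WT-NTD and 2.75 from Het. These distances carry no test.

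Among 57 gene lists that cover cell types, positional factors, pathways and RNA classes, those furthest from the median of all genes were histone genes above it and macrophage and interferon-stimulated genes below it. Histone genes had a median log2 change of 2.27 over 50 tested members. The macrophage median was -1.29 over 21 members and the interferon-stimulated median was -1.10 over 35. Antigen presentation genes and mesothelial genes followed on the lower side. The counts of called members below stand against 14.3% higher and 12.3% lower among all tested genes.

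**Figure D2:**
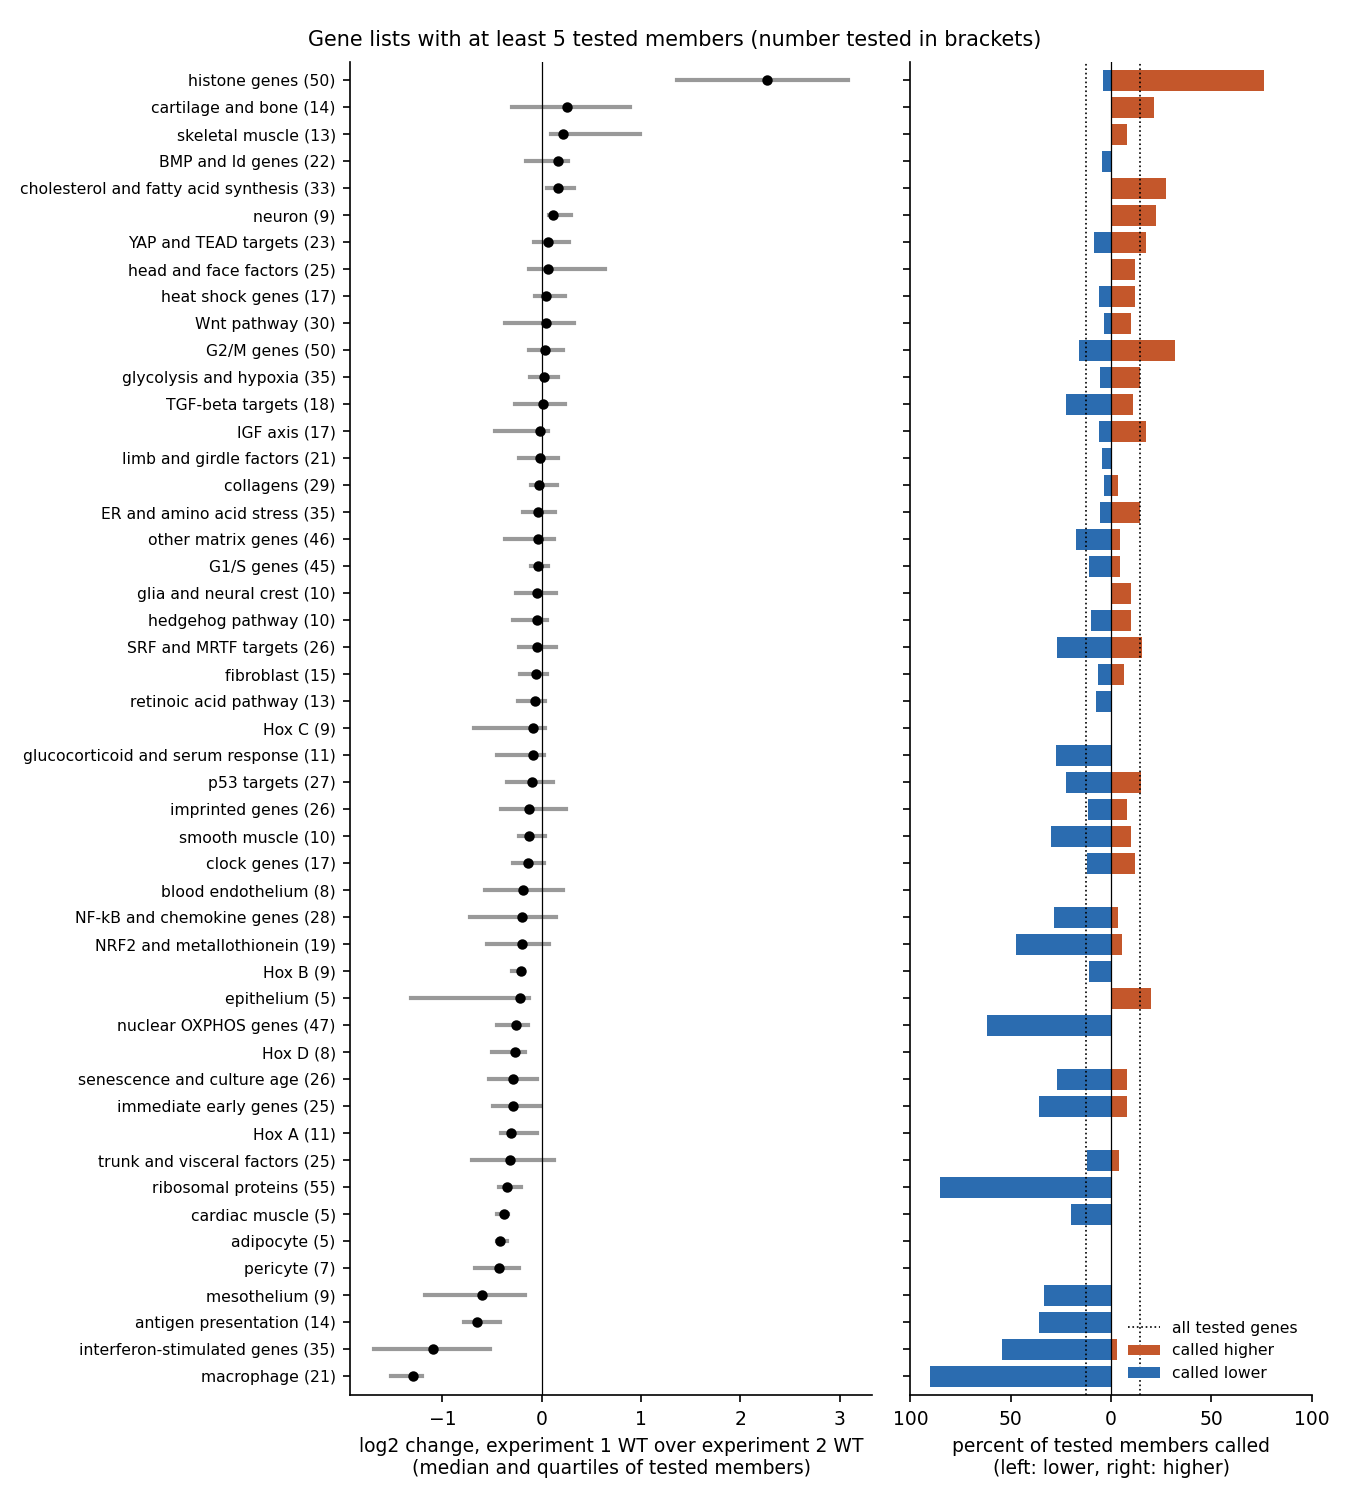
Left panel, median log2 change of experiment 1 WT over experiment 2 WT with quartiles for each list with at least 5 tested members. The solid line marks no change. In the right panel, bars give the percent of tested members called lower (to the left) and higher (to the right). Dotted lines mark the same percents for all tested genes. Most medians sit close to the line of no change, and histone, macrophage and interferon-stimulated genes stand farthest from it.

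The most abundant gene with a large increase was a ribosomal RNA. Rn45s, the precursor of ribosomal RNA, had 29119, 35605 and 36745 CPM in experiment 1 WT, against 2244, 1875 and 1796 CPM in experiment 2 WT. The groups did not overlap, and the ratio was 17.2 with a 95% interval of 14 to 21.1 (log2 4.10, SE 0.13, edgeR adjusted p = 1.74e-05). Rn45s took 2.88%, 3.47% and 3.57% of all counts in experiment 1 WT, against 0.225%, 0.196% and 0.182% in experiment 2 WT. The other fibroblast libraries kept the same split by experiment, with 1.98% to 3.97% in the 6 other libraries of experiment 1 and 0.133% to 0.274% in the 9 other libraries of experiment 2. GENCODE M21 gives no position for Rn45s.

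3 more genes with large changes followed the same split in all 21 fibroblast libraries. Lars2, the mitochondrial leucyl-tRNA synthetase, had 2696, 4141 and 3997 CPM in experiment 1 WT, against 900, 786 and 567 CPM in experiment 2 WT (log2 2.27, SE 0.21, edgeR adjusted p = 0.00131). Malat1, an abundant nuclear long non-coding RNA, had 493, 814 and 813 CPM in experiment 1 WT, against 302, 231 and 208 CPM in experiment 2 WT (log2 1.51, edgeR adjusted p = 0.00304). Rmrp, the RNA of the RNase MRP enzyme, had 2.09, 2.39 and 2.39 CPM in experiment 1 WT, against 0.261, 0.731 and 0.312 CPM in experiment 2 WT (log2 2.38, edgeR adjusted p = 0.00453). Not every short RNA of this kind moved. Rpph1, the RNA of RNase P, had a log2 change of -0.04, and Snora74a, a small nucleolar RNA, had 0.08, with edgeR adjusted p-values of 0.924 and 0.897. Of 15 listed non-coding RNAs without poly(A), 9 were in the table, 3 were tested and 1 was called.

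Histone genes had more higher calls than any other list. Of 65 listed histone genes, 50 were tested, 38 rose in experiment 1 WT, 2 fell and 10 were not called. Hist1h1e, a linker histone gene, had 5.39, 7.23 and 7.34 CPM in experiment 1 WT, against 0.130, 0.479 and 0.170 CPM in experiment 2 WT (log2 4.64, SE 0.39, edgeR adjusted p = 0.00116). Part of its exon sequence is also annotated to Hist1h2be on the same strand. The linker histone genes Hist1h1d and Hist1h1b and the core histone gene Hist2h2bb had log2 changes of 3.41, 3.23 and 3.96. Hist1h4f, a core histone H4 gene, had 74 counts over the 3 experiment 1 WT libraries and 0 over the 3 experiment 2 WT libraries, which makes it at least 18.1-fold higher against a floor of 3 counts over the group (edgeR adjusted p = 0.00505).

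The 2 histone genes that fell were Hist1h2bc and Hist1h4i. Hist1h2bc had 13.5, 12.6 and 13.1 CPM in experiment 1 WT, against 20.8, 21.4 and 17.7 CPM in experiment 2 WT, a log2 change of -0.61. Hist1h4i had 3.40, 4.09 and 3.93 CPM in experiment 1 WT, against 4.87, 5.45 and 6.39 CPM in experiment 2 WT, a log2 change of -0.55. Hist1h1c, another linker histone gene, was not called and had 22.6, 20.7 and 22.5 CPM in experiment 1 WT, against 20.4, 19.1 and 19.3 CPM in experiment 2 WT. When the tested genes were limited to an average log2 CPM of 1 or more, 7 histone genes were tested, of which 3 rose and 2 fell, with a median log2 change of 0.15. The large changes thus lay mostly in histone genes of low count. Hist1h1e and Hist1h1d, with log2 changes of 4.64 and 3.41, were exceptions with an average log2 CPM of 1 or more. Many histone genes are near-identical copies, and how the counting divided their reads is not given in the sources used here, so values of single histone genes are uncertain. The part of the poly(A) selection or of RNA quality in these differences was not tested.

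The stem-loop that ends replication-dependent histone messages was looked up in the GENCODE M21 transcripts. Annotated transcripts that hold it can run on past it, so its presence alone does not show how a message ends. The pattern searched on the transcript strand was GG, any 2 bases, CTTTT, any base, AG, any 2 bases and CC. It was found in 24 of the 38 histone genes that rose, in 1 of the 2 that fell and in 7 of the 10 that were not called. Of 13867 other tested genes, 25 held it (0.180%), with no limit on where in the transcript it lay. The sequences below show the stem-loop, in capitals, within 30 bases that lie after the coding sequence of 4 histone genes that rose and of Hist1h4i, which fell. In the annotated transcripts 28 to 33 bases follow the loop in Hist1h2bf, Hist1h4b and Hist1h4f, while 330 follow it in Hist1h4i and 1153 in Hist1h1e. All 5 genes lie on chromosome 13, and the sequences are printed 5′ to 3′ on the transcript strand with T for U.
Hist1h1e: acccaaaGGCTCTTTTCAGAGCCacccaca
Hist1h2bf: acccaaaGGCTCTTTTCAGAGCCacctacc
Hist1h4b: tacaaaaGGTCCTTTTCAGGACCactcact
Hist1h4f: tctcaaaGGCCCTTTTCAGGGCCacccact
Hist1h4i: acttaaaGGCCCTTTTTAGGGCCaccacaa
The presence of the motif did not separate the histone genes that rose from those that did not. At most 60 bases followed it in 12 of the 24 that rose and held it. This held for 0 of the 1 that fell and for 2 of the 7 that were not called.

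**Figure D3:**
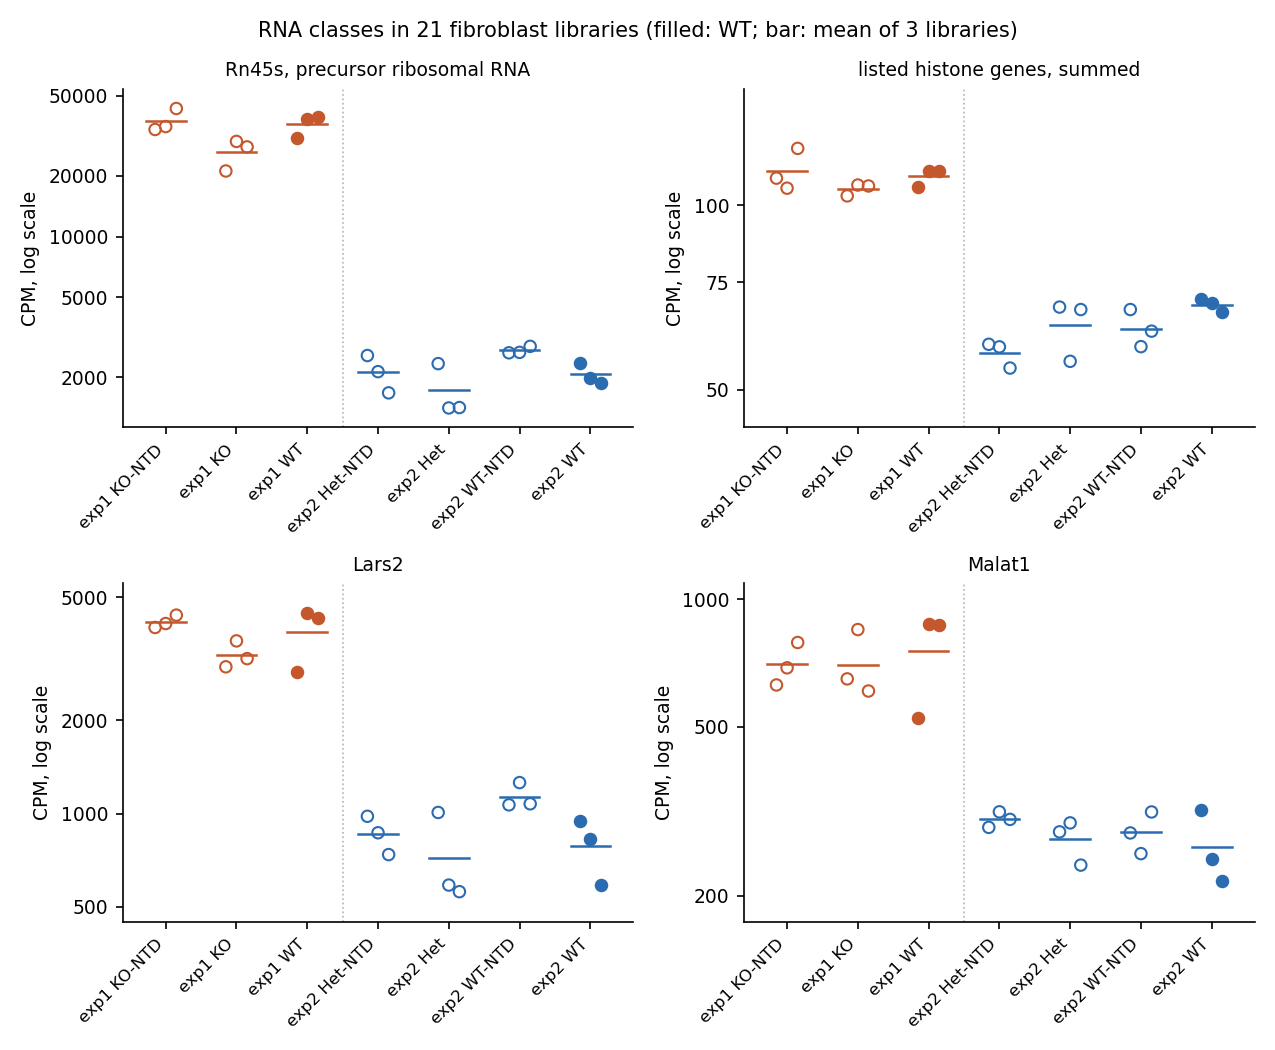
CPM scaled over all 27 libraries, on log axes, of Rn45s, the summed histone genes, Lars2 and Malat1 in each of the 21 fibroblast libraries, by group (KO-NTD, KO and WT of experiment 1, then Het-NTD, Het, WT-NTD and WT of experiment 2); filled points are WT libraries and bars are means of 3. In each panel all 9 libraries of experiment 1 lie above all 12 libraries of experiment 2, with histone sums of 104 to 124 CPM in experiment 1 and 54.3 to 70.2 CPM in experiment 2.

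The histone difference recurred in libraries that the comparison did not use. Summed over the list, histone genes had 107 to 114 CPM in experiment 1 WT, against 67.1 to 70.2 CPM in experiment 2 WT, scaled over all 27 libraries. The other libraries had 104 to 124 CPM in experiment 1 and 54.3 to 68.3 CPM in experiment 2. In 36 of the 50 tested histone genes, all 6 other libraries of experiment 1 lay above all 9 other libraries of experiment 2, which held for 12.1% of all tested genes, and in 0 they lay below. Offsets for exon length and GC content gave 42 histone genes higher and 1 lower.

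Differences across all genes were graded by exon length and base composition. Over 13918 genes with 1 GENCODE M21 match, 99.1% of those tested, Spearman's rho of the log2 change was 0.347 with exon length and -0.421 with GC content. Genes are not independent replicates, and no p is given. With the genes in 10 equal bins from short to long, the median log2 change ran from -0.23 to 0.20. The share called higher was 4.66% in the shortest bin and 33.6% in the longest, and the share called lower was 25% and 2.51%. From the lowest to the highest of 10 bins of GC content, the median ran from 0.26 to -0.22.

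The same grading was seen between other groups of different experiments. The 6 pairs that crossed the experiments and held neither WT group had rho of 0.289 to 0.323 with length and -0.456 to -0.357 with GC content. The 9 pairs of groups within 1 experiment had rho of -0.0729 to 0.0253 with length and -0.138 to 0.0653 with GC content. Pairs that share a group share its libraries. With offsets that removed the dependence on length and GC content, 1782 genes were called, 884 higher and 898 lower, and 1370 of these were calls of the fit without offsets in the same direction, while 4 were calls of the opposite direction. These offsets were chosen after the data were seen.

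**Figure D4:**
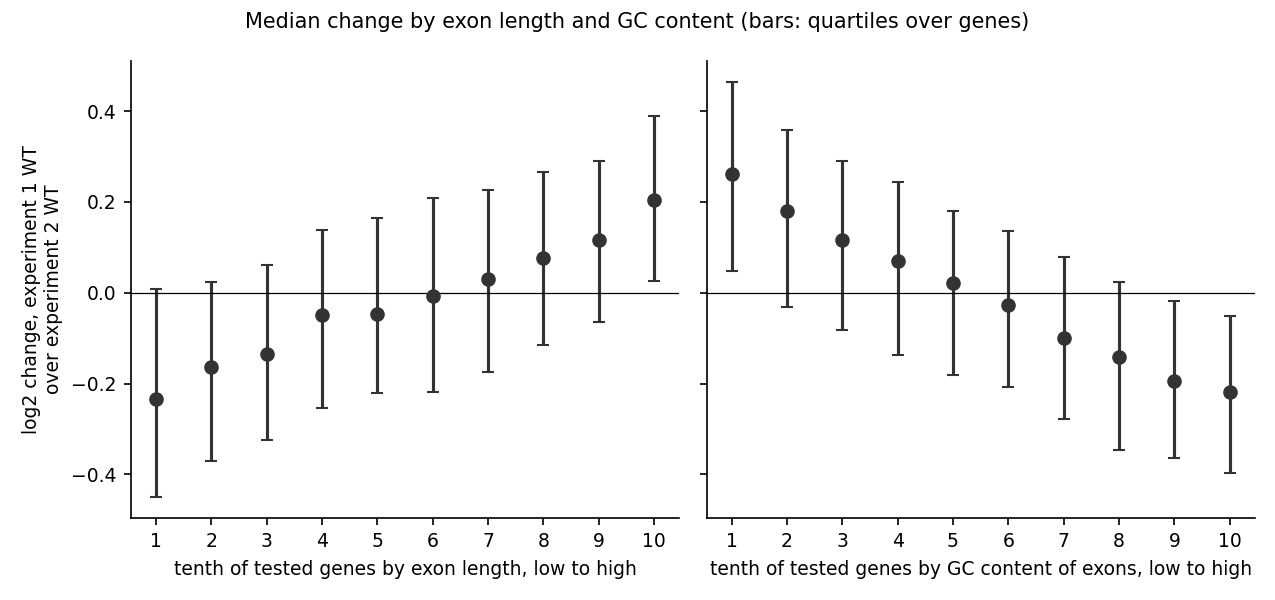
Median log2 change of experiment 1 WT over experiment 2 WT, with quartiles, in 10 equal bins of the tested genes by exon length (left) and by GC content (right). The median rises from -0.23 in the shortest to 0.20 in the longest bin and falls from 0.26 to -0.22 from the lowest to the highest bin of GC content.

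Ribosomal protein and respiratory chain genes, which are mostly short, fell together. All 55 listed ribosomal protein genes were tested, 47 fell and 0 rose, with a median log2 change of -0.35. Rplp1, an acidic protein of the large subunit, had 1025, 1078 and 1015 CPM in experiment 1 WT, against 1630, 1541 and 1613 CPM in experiment 2 WT (log2 -0.62, SE 0.05, edgeR adjusted p = 0.0012). Rps28, of the small subunit, had 189, 193 and 186 CPM in experiment 1 WT, against 284, 283 and 290 CPM in experiment 2 WT (log2 -0.59). The groups did not overlap for either gene. The list took 3.32% to 3.44% of counts in experiment 1 WT, against 4.36% to 4.48% in experiment 2 WT. In 51 of the 55 genes, all 6 other libraries of experiment 1 lay below all 9 other libraries of experiment 2, which held for 11.2% of all tested genes. With offsets for length and GC content, 24 ribosomal protein genes fell and the median log2 change was -0.18, and no cause of the difference was tested. Ribosomal protein genes have many near-identical pseudogenes, so single values are uncertain.

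Nuclear genes of the respiratory chain moved in the same way. Of 47 tested, 29 fell and 0 rose, with a median log2 change of -0.26, and 15 fell with the offsets. Cox6a1, a subunit of cytochrome c oxidase, had 111, 108 and 112 CPM in experiment 1 WT, against 163, 165 and 166 CPM in experiment 2 WT (log2 -0.58, edgeR adjusted p = 0.00114). Cox8a of the same enzyme, Ndufa2 of complex I and Atp5d of ATP synthase had log2 changes of -0.57, -0.55 and -0.52. In 30 of the 47 genes, all 6 other libraries of experiment 1 lay below all 9 other libraries of experiment 2. The listed mitochondrially encoded genes were not found in the deposited table, so they were not analysed here.

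Macrophage messages were lower in experiment 1 WT. Of 21 tested macrophage markers, 19 fell, 0 rose and 2 (Aif1 and Fcgr1) were not called. C1qb, a chain of the complement protein C1q that tissue macrophages make, had 5.28, 3.10 and 3.26 CPM in experiment 1 WT, against 15.7, 11 and 15 CPM in experiment 2 WT (log2 -1.84, SE 0.23, edgeR adjusted p = 0.00219). Lyz2, the lysozyme of myeloid cells, had 32.6, 21.4 and 32.5 CPM in experiment 1 WT, against 67.5, 63.6 and 80.9 CPM in experiment 2 WT (log2 -1.29, edgeR adjusted p = 0.00233). Fcer1g, the shared chain of Fc receptors, and Ctss, a lysosomal protease, had log2 changes of -1.67 and -1.22. In each of these genes the 3 experiment 1 WT libraries lay below the 3 experiment 2 WT libraries. In bulk RNA, fewer macrophages and less of each message per macrophage cannot be told apart.

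5 of the 15 genes with the lowest log2 changes are also known from macrophages and were not on the marker list: Fcrls, Ms4a7, Trem2, Spi1 and Pld4. Spi1, the transcription factor PU.1 of myeloid cells, had 1.86, 1.07 and 0.624 CPM in experiment 1 WT, against 3.44, 5.52 and 3.63 CPM in experiment 2 WT (log2 -1.83). Trem2, a lipid receptor of macrophages and microglia, had 1.14, 0.852 and 0.790 CPM in experiment 1 WT, against 3.39, 4.26 and 4.06 CPM in experiment 2 WT (log2 -2.07). Rac2, a small GTPase of blood cells, had a log2 change of -1.74. The Spi1 call was lost without experiment 1 WT 2 (edgeR adjusted p = 0.0588). Mmp9, a matrix protease that macrophages and other cells secrete, had 4.16, 3.53 and 2.66 CPM in experiment 1 WT, against 21.1, 24.1 and 11.9 CPM in experiment 2 WT (log2 -2.46, SE 0.28, edgeR adjusted p = 0.00173). No lymphocyte marker passed the filter on low counts.

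Summed over the list, macrophage markers had 83.0, 109 and 142 CPM in experiment 1 WT, against 238, 267 and 290 CPM in experiment 2 WT, scaled over all 27 libraries. The sums ranged from 13.5 to 542 CPM in the 6 other libraries of experiment 1, with a median of 212 CPM, and from 15.5 to 245 CPM in the 9 other libraries of experiment 2, with a median of 40.1 CPM. The medians of the other libraries thus lay in the opposite order to the WT groups. None of the 21 markers separated these 2 sets of libraries. In a fit over all 21 fibroblast libraries, whose spread includes that range, 0 of the markers were called lower between the WT groups.

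**Figure D5:**
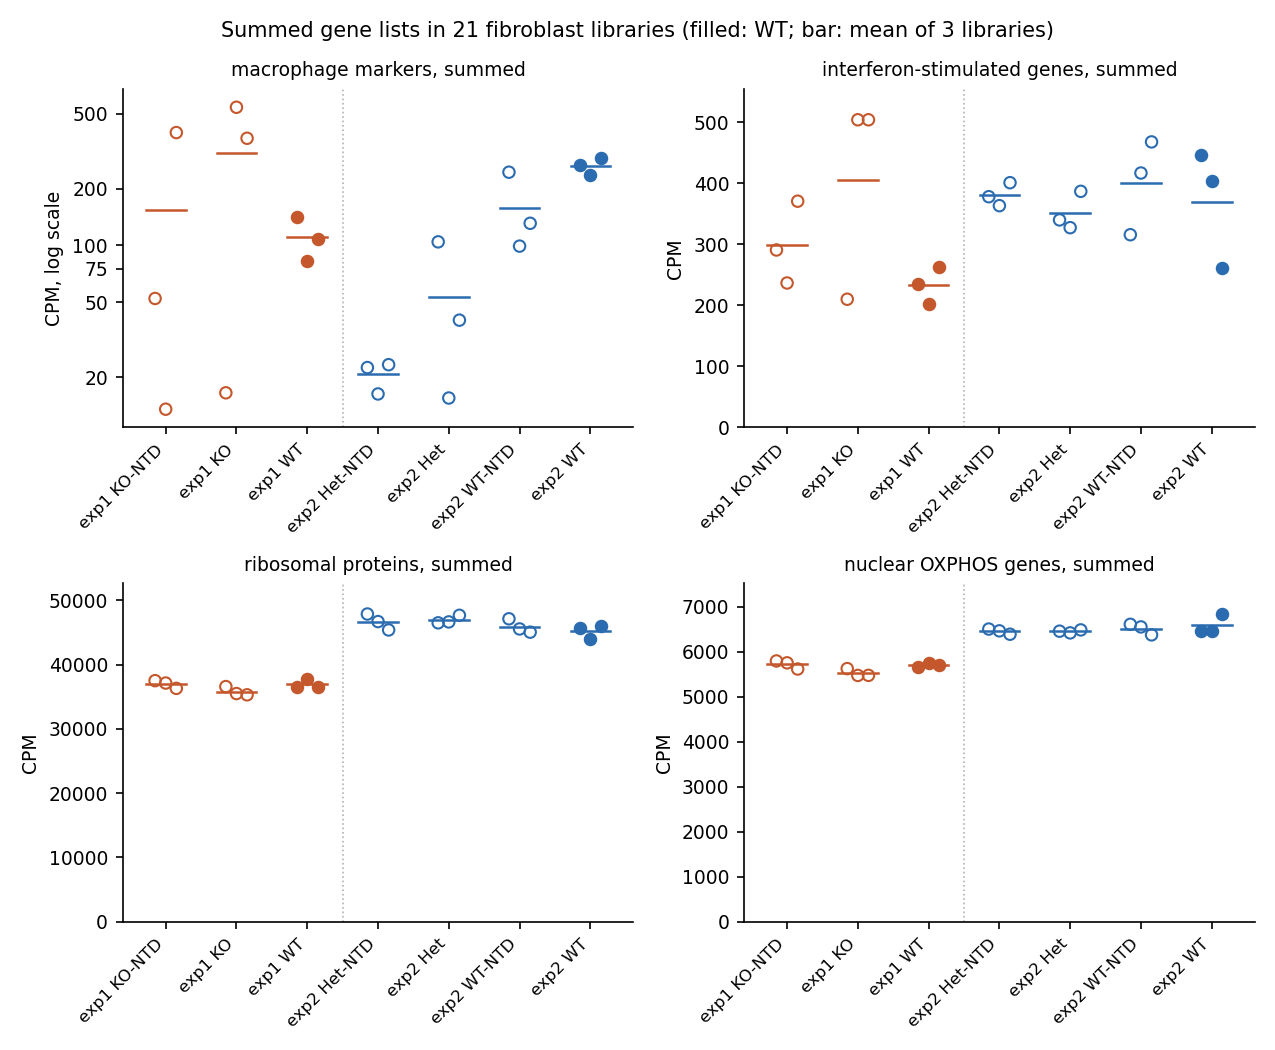
Summed CPM, scaled over all 27 libraries, of macrophage, interferon-stimulated, ribosomal protein and nuclear respiratory chain genes in each of the 21 fibroblast libraries by group; filled points are WT libraries and bars are means of 3. Macrophage sums spread from 13.5 to 542 CPM within experiment 1 and from 15.5 to 290 CPM within experiment 2, while ribosomal protein sums of the WT groups are 36492 to 37813 CPM in experiment 1 and 44002 to 45962 CPM in experiment 2.

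Interferon-stimulated genes, which cells switch on after interferon binds its receptor, were also lower in experiment 1 WT. Of 35 tested, 19 fell and 1 rose. Isg15, a ubiquitin-like modifier at chr4:156199424-156200818 on the minus strand, had 2.01, 1.43 and 2.16 CPM in experiment 1 WT, against 10.9, 9.66 and 5.42 CPM in experiment 2 WT (log2 -2.22, SE 0.29, edgeR adjusted p = 0.00235). Bst2, the membrane protein tetherin that holds budding viruses, had 9.19, 7.65 and 8.82 CPM in experiment 1 WT, against 29.9, 31.0 and 16.1 CPM in experiment 2 WT (log2 -1.59). Oas1a, a sensor of double-stranded RNA, and Rtp4, an inhibitor of viral replication, had log2 changes of -2.16 and -1.66. The exception was Ifit2, with 16.3, 16.8 and 18.0 CPM in experiment 1 WT, against 14.9, 13.8 and 14.1 CPM in experiment 2 WT (log2 0.26, edgeR adjusted p = 0.0475), and its call was lost in each of the 6 leave-one-out fits.

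The count of interferon-stimulated genes depended on single libraries. Among the experiment 2 WT libraries, WT 3 was the lowest for Isg15, Bst2, Oas1a and Rtp4. Left out 1 at a time, the libraries gave 6 (without experiment 1 WT 2) to 22 (without experiment 2 WT 3) lower calls, with 11 without experiment 2 WT 1. Irf7, a transcription factor of the interferon response, had a log2 change of -1.71 and lost its call without experiment 1 WT 2. Oasl2, a relative of the Oas enzymes, had -1.78 and lost it in 5 of the 6 such fits. In the fit over all 21 fibroblast libraries 9 of the genes were lower, and 6 with the macrophage level as a covariate. The summed level was 202 to 263 CPM in experiment 1 WT and 261 to 445 CPM in experiment 2 WT, scaled over all 27 libraries. None of the tested genes separated the 6 other libraries of experiment 1 from the 9 other libraries of experiment 2. Macrophage messages moved with these genes, and their part in the result was not tested beyond that covariate.

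The promoters of interferon-stimulated genes often hold the interferon-stimulated response element, bound by the STAT and IRF factors. The core, TTTC with 2 bases of any kind and TTTC again, or GAAA, 2 bases and GAAA for the other strand, was searched in RefSeq promoters (GRCm38.p6), with matches allowed to overlap one another. It stood in 9 of the 13 interferon-stimulated genes that fell and had a promoter in the table (69.2%), and in 6 of the 12 that did not fall. Over all 10437 tested genes with a promoter, 363 held it (3.48%), and 70 of the 1350 genes called lower did (5.19%). A match is a description of the letters and not a bound site. Isg15 and Ifit1, the gene of a protein that binds foreign RNA, are shown because both fell and hold more than 1 match, in capitals.
Isg15 promoter, chr4:156200769-156201068, minus strand: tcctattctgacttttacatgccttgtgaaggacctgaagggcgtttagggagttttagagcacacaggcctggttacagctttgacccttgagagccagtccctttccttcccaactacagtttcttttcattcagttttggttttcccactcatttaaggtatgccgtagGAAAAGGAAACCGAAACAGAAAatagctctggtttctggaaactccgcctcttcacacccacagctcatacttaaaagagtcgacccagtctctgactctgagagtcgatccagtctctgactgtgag
Ifit1 promoter, chr19:34640639-34640938, plus strand: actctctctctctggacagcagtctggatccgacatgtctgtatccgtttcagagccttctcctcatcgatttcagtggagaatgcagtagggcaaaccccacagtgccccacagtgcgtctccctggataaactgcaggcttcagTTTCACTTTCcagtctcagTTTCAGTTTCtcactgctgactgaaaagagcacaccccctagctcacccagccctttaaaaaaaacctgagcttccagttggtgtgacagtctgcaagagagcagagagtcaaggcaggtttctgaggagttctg
The Isg15 promoter held 3 overlapping matches and the Ifit1 promoter held 2. Ifit1 had 1.65, 0.597 and 1.56 CPM in experiment 1 WT, against 4.80, 4.14 and 2.13 CPM in experiment 2 WT (log2 -1.55, edgeR adjusted p = 0.0339).

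Genes of antigen presentation to T cells, which interferon also raises, had a median log2 change of -0.65 over 14 tested members, 5 of which fell and 0 rose. H2-D1, a class I histocompatibility chain, had 8.51, 9.29 and 9.0 CPM in experiment 1 WT, against 19.1, 16.3 and 15.5 CPM in experiment 2 WT (log2 -0.92, SE 0.11, edgeR adjusted p = 0.00173). B2m, the light chain of class I, had 175, 174 and 168 CPM in experiment 1 WT, against 215, 242 and 222 CPM in experiment 2 WT (log2 -0.39). H2-K1, a close relative of H2-D1 whose reads may be divided with it, had -0.76 and Tap1, the peptide transporter, had -0.79 on the log2 scale. Leave-one-out fits gave 2 (without experiment 1 WT 2) to 9 (without experiment 2 WT 3) lower calls, and 3 without experiment 1 WT 1. The Tap1 and H2-K1 calls were lost without experiment 1 WT 2, and that of H2-K1 also without experiment 1 WT 1.

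Other cell types differed by single markers more than as lists. Of 9 tested mesothelial markers, 3 fell and 0 rose: Upk3b, Upk1b and Lrrn4. Upk3b, a uroplakin of mesothelium and urothelium, had 3.82, 2.27 and 1.43 CPM in experiment 1 WT, against 10.4, 8.60 and 10.9 CPM in experiment 2 WT (log2 -1.99, SE 0.31, edgeR adjusted p = 0.00437). Upk1b had -1.50 and Lrrn4 had -1.18 on the log2 scale. The mesothelial markers Msln and Wt1 were not called. Other libraries spread widely, with Upk3b at 0.208 to 11.5 CPM in the 6 other libraries of experiment 1 and 1.04 to 11.3 CPM in the 9 other libraries of experiment 2, scaled over all 27 libraries.

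Cartilage and bone markers rose in 3 of 14 tested cases (21.4%), against 14.3% of all tested genes. Acan, the aggrecan core protein of cartilage, had 62.0, 99.7 and 57.9 CPM in experiment 1 WT, against 10.8, 29.2 and 26.5 CPM in experiment 2 WT (log2 1.73, SE 0.36, edgeR adjusted p = 0.012). Sox9, the transcription factor of cartilage precursors, had 32.3, 33.0 and 36.2 CPM in experiment 1 WT, against 24.6, 29.5 and 23.5 CPM in experiment 2 WT (log2 0.39). Hapln1, the link protein that ties aggrecan to hyaluronan, had a log2 change of 1.3. The Acan call was lost without experiment 1 WT 2 (edgeR adjusted p = 0.0626), the Hapln1 call in 3 of the 6 leave-one-out fits and the Sox9 call in 4. Col2a1, the main collagen of cartilage, was higher in every experiment 1 WT library but not called, with 1013, 902 and 741 CPM, against 29.4, 399.6 and 394 CPM in experiment 2 WT (log2 1.69, SE 0.83, edgeR adjusted p = 0.178). It was named after its values were seen.

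Neuronal markers rose in 2 of 9 tested cases (22.2%), against 14.3% of all tested genes. Stmn2, a tubulin-binding protein of growing axons, had 38.2, 53.4 and 25.4 CPM in experiment 1 WT, against 3.96, 16.2 and 13.0 CPM in experiment 2 WT (log2 1.82), and its call was lost in 4 of the 6 leave-one-out fits. Ncam1, a cell adhesion molecule, had 0.36, and its call was lost in 5. Of 5 tested epithelial markers, Krt7 rose, with 16.2, 12.1 and 10.6 CPM in experiment 1 WT, against 3.26, 2.24 and 5.76 CPM in experiment 2 WT (log2 1.79, edgeR adjusted p = 0.00704). Krt8 and Krt14 were not called, at -1.31 and -2.21 on the log2 scale.

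Of 10 smooth muscle markers, 3 fell and 1 rose. Acta2, the smooth muscle actin of activated fibroblasts, had 3811, 3830 and 3804 CPM in experiment 1 WT, against 5159, 4189 and 4881 CPM in experiment 2 WT (log2 -0.31, edgeR adjusted p = 0.023), a call lost in 5 of the 6 leave-one-out fits. Tagln had -0.25, Smtn -0.20 and Synpo2, the one that rose, 0.42 on the log2 scale. The 1 call among 13 skeletal muscle markers was Myh3, the embryonic myosin, which rose. The 1 among 10 glial and neural crest markers was Fabp7, which rose. The 1 among 5 cardiac markers was Tnnt2, and the 1 among 2 liver markers was Trf, and both fell. No marker was called among 8 of blood endothelium, 7 of pericytes, 5 of adipocytes, 3 of germ or pluripotent cells and 2 of melanocytes. The calls of Tagln, Smtn, Synpo2 and Tnnt2 were lost in 5, and those of Myh3, Fabp7 and Trf in 4, of the 6 leave-one-out fits.

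Few genes that record body position were called. Of 37 tested Hox genes in the 4 clusters, 1 was called: Hoxb13, a factor of the tail end of the body, had 0.127, 0.0341 and 0.270 CPM in experiment 1 WT, against 0.808, 0.605 and 0.596 CPM in experiment 2 WT (log2 -2.24, SE 0.59, edgeR adjusted p = 0.0267). The median log2 changes of the clusters were -0.31 for Hox A, -0.21 for Hox B, -0.09 for Hox C and -0.26 for Hox D. In the fit over 21 fibroblast libraries 1 Hox C and 1 Hox D gene were lower. With the macrophage level as a covariate, 3 Hox A, 2 Hox B, 3 Hox C and 1 Hox D genes were lower. Scaled over all 27 libraries, summed Hox B genes had 46.5 to 87.7 CPM in the other experiment 1 libraries. They had 89.6 to 114 CPM in the other experiment 2 libraries, while the sums of the remaining clusters overlapped. Of 21 limb and girdle factors, Meis3 fell (log2 -0.44) and none rose. The Hoxb13 call was lost in 4 and the Meis3 call in 3 of the 6 leave-one-out fits.

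Head and face factors rose in 3 of 25 tested cases (12%), below the 14.3% of all tested genes, and fell in 0. Zic2, a zinc finger factor of the neural folds, had 9.57, 7.65 and 6.07 CPM in experiment 1 WT, against 0.521, 2.29 and 2.13 CPM in experiment 2 WT (log2 2.24, SE 0.45, edgeR adjusted p = 0.0102). Its call was lost without experiment 1 WT 1 and without experiment 1 WT 2. Msx2, of skull and tooth mesenchyme, had 9.46, 10.6 and 7.74 CPM in experiment 1 WT, against 1.96, 4.46 and 5.11 CPM in experiment 2 WT (log2 1.27), and lost its call in 3 of the 6 fits. Six4 had 0.66. Foxd1 was not called, with 15, 12.9 and 8.03 CPM in experiment 1 WT and 1.80, 7.29 and 5.31 CPM in experiment 2 WT. In the other libraries Zic2 lay at 1.33 to 4.53 CPM in experiment 1 and 0.419 to 2.59 CPM in experiment 2, scaled over all 27 libraries, so the 2 sets overlapped.

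Trunk and visceral factors had a median log2 change of -0.32 over 25 tested genes, of which 1 rose and 3 fell. Nr2f2, a nuclear receptor of trunk mesenchyme and veins, had 45.7, 53.3 and 41.8 CPM in experiment 1 WT, against 27.8, 32.9 and 35.0 CPM in experiment 2 WT (log2 0.56). Osr2, a zinc finger factor of kidney, limb and palate mesenchyme, had 2.58, 3.75 and 4.53 CPM in experiment 1 WT, against 7.48, 8.70 and 6.24 CPM in experiment 2 WT (log2 -1.05). Hlx and Meox1 had -0.56 and -1.46 on the log2 scale, and the call of each was lost in 5 of the 6 leave-one-out fits.

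Growth and division genes moved in both directions by small amounts. Of 50 G2/M genes, 16 rose and 8 fell, with a median log2 change of 0.03. Ect2, the exchange factor that activates RhoA in cytokinesis, had 97.8, 113 and 104 CPM in experiment 1 WT, against 74.0, 83.4 and 80.3 CPM in experiment 2 WT (log2 0.40, SE 0.07, edgeR adjusted p = 0.00658). Ube2c, of the anaphase-promoting ubiquitin pathway, had 94.4, 97.8 and 94.5 CPM in experiment 1 WT, against 115, 121 and 122 CPM in experiment 2 WT (log2 -0.32). Kif20b, a mitotic kinesin, and Plk1, a mitotic kinase, had 0.40 and -0.31. With offsets for length and GC content 1 G2/M gene was higher and 4 were lower, and upper quartile scaling gave 11 higher and 12 lower and turned the median to -0.02. Leave-one-out fits gave 9 to 15 higher and 2 to 8 lower calls, with the fewest higher without experiment 1 WT 2 or experiment 2 WT 1 and the fewest lower without experiment 1 WT 1 or WT 3. Of 45 G1/S genes, 2 rose, Pola1 and Ccne2, and 5 fell, among them the replication factors Cdt1 and Cdc45, with 2 to 3 lower in the leave-one-out fits. The Ccne2 call was lost in 4 of these fits.

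Of 27 p53 targets 4 rose and 6 fell (37% called, against 26.6% of all tested genes). With offsets for length and GC content 1 of the 27 rose and 3 fell, where 1782 of all 14046 tested genes were called. Plk3, a stress-activated kinase, had 18.4, 18.3 and 18.1 CPM in experiment 1 WT, against 30.2, 25.7 and 29.5 CPM in experiment 2 WT (log2 -0.64, edgeR adjusted p = 0.002). Bax, which permeabilises mitochondria in apoptosis, had -0.46, and Rrm2b, a ribonucleotide reductase subunit, had 0.55. Without experiment 1 WT 3 the p53 counts were 1 higher and 3 lower. Of 26 genes of senescence and culture age, 2 rose and 7 fell, with 3 lower without experiment 1 WT 1 or experiment 2 WT 1. With offsets 3 of these 26 rose and 3 fell. Lif, a cytokine of the interleukin-6 family, had 14.8, 10.9 and 12.4 CPM in experiment 1 WT, against 23.2, 21.5 and 24.0 CPM in experiment 2 WT (log2 -0.85). Il6 had -1.24, while Cxcl1, a neutrophil-attracting chemokine, had 11.2, 4.94 and 6.15 CPM in experiment 1 WT, against 2.45, 2.82 and 2.13 CPM in experiment 2 WT (log2 1.58, edgeR adjusted p = 0.00963).

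Immediate early genes, which serum and growth factors induce within minutes, fell more often than they rose. Of 25 tested, 9 fell and 2 rose, with a median log2 change of -0.29. Nr4a1, an orphan nuclear receptor, had 42.5, 35.7 and 41.2 CPM in experiment 1 WT, against 99.7, 102 and 91.9 CPM in experiment 2 WT (log2 -1.3, SE 0.08, edgeR adjusted p = 0.000889). Egr2, a zinc finger factor, had 22.3, 20.2 and 22.7 CPM in experiment 1 WT, against 42.0, 39.9 and 38.2 CPM in experiment 2 WT (log2 -0.88). The groups were far apart for both genes. Nr4a1 lay at 31.7 to 50.7 CPM in the other libraries of experiment 1 and at 58.5 to 103 CPM in those of experiment 2, scaled over all 27 libraries, and Egr2 at 14 to 28.7 and 41.7 to 55.2 CPM. Fos and Jun, the subunits of AP-1, were not called, at -0.07 and -0.02 on the log2 scale. With offsets, 5 immediate early genes fell and 1 rose.

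Matrix genes were close to level. Of 29 tested collagens, 1 rose, Col4a5, and 1 fell, Col27a1, and these calls were lost in 5 and in 4 of the 6 leave-one-out fits. Of 46 other matrix genes, 2 rose and 8 fell, with 3 lower without experiment 1 WT 1 or WT 2. Ltbp1, which stores latent TGF-beta in the matrix, had 561, 671 and 688 CPM in experiment 1 WT, against 346, 323 and 441 CPM in experiment 2 WT (log2 0.79, SE 0.13, edgeR adjusted p = 0.00476). Mmp14, a membrane-bound collagenase, had 431, 346 and 419 CPM in experiment 1 WT, against 647, 568 and 612 CPM in experiment 2 WT (log2 -0.61). Sparc, an abundant collagen-binding protein, had 3868, 3070 and 3491 CPM in experiment 1 WT, against 5229, 5262 and 4453 CPM in experiment 2 WT (log2 -0.52). Serpinh1, the collagen chaperone, had -0.45, and Loxl1, a cross-linking enzyme, had -0.35.

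Genes of the actin-linked SRF pathway, to which RhoA and the formin mDia1 belong upstream, moved both ways. Of 26 tested, 4 rose and 7 fell (42.3% called, against 26.6% of all tested genes), with 1 lower without experiment 1 WT 1. With offsets for length and GC content 2 of the 26 rose and 1 fell, where 1782 of all 14046 tested genes were called. Vcl, the focal adhesion protein vinculin, had 1011, 1105 and 1129 CPM in experiment 1 WT, against 758, 778 and 904 CPM in experiment 2 WT (log2 0.41). Pdlim7, an actin-bound scaffold, had 194, 188 and 161 CPM in experiment 1 WT, against 255, 224 and 261 CPM in experiment 2 WT (log2 -0.45). Of 23 YAP and TEAD targets, 4 rose and 2 fell. The lower count of these targets was 0 or 1 in the leave-one-out fits. Amotl2, a feedback inhibitor of YAP, had 0.38 and Ctgf, a matricellular protein, had -0.47. The counts were 2 higher and 4 lower of 18 for TGF-beta targets, with Tgfbi at 0.95, and 0 higher and 1 lower of 22 for BMP and Id genes, with Gdf6 at -0.77. Without experiment 1 WT 1 or experiment 2 WT 1, 0 TGF-beta targets were lower. The calls of Ctgf, Gdf6 and Tgfbi were lost in 3, 2 and 1 of the 6 leave-one-out fits.

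Developmental signalling showed single genes. Of 30 Wnt pathway genes, 3 rose, the ligands Wnt4, Wnt5a and Wnt2b, and 1 fell, the inhibitor Nkd1. Together 13.3% of this list were called, against 26.6% of all tested genes. Wnt4 had 26.3, 22.7 and 23.6 CPM in experiment 1 WT, against 16.9, 14.9 and 12.9 CPM in experiment 2 WT (log2 0.70, edgeR adjusted p = 0.00444). Wnt2b had 11.6, 13.3 and 9.19 CPM in experiment 1 WT, against 6.96, 4.59 and 5.71 CPM in experiment 2 WT (log2 0.98). Of 10 hedgehog genes, Gli1, the transcription factor and target of the pathway, fell, with 1.39, 0.852 and 1.16 CPM in experiment 1 WT, against 2.71, 2.52 and 2.67 CPM in experiment 2 WT (log2 -1.22), and Hhip, the hedgehog-binding inhibitor, rose (log2 0.70). In the retinoic acid pathway, 1 of 13 genes fell, and 2 or 3 of 14 did when 1 library was left out. This was Aldh1a1, a retinaldehyde dehydrogenase, with 0.465, 0.835 and 0.665 CPM in experiment 1 WT, against 1.54, 4.29 and 6.05 CPM in experiment 2 WT (log2 -2.58, SE 0.50, edgeR adjusted p = 0.009). The calls of Nkd1 and Hhip were lost in 5 of the 6 leave-one-out fits.

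Of 17 genes of the IGF axis, 3 rose and 1 fell. Igf1r, the IGF receptor, had 205, 229 and 216 CPM in experiment 1 WT, against 160, 131 and 155 CPM in experiment 2 WT (log2 0.54), and Igfbp3, an IGF-binding protein, had 97.6, 43.6 and 101 CPM in experiment 1 WT, against 194, 349 and 107 CPM in experiment 2 WT (log2 -1.42, edgeR adjusted p = 0.0498). Of 26 imprinted genes, 2 rose and 3 fell. The maternally expressed non-coding RNAs Meg3 and Mirg, of 1 imprinted cluster, had -0.79 and -0.66. Zdbf2 and Impact, both expressed from the paternal copy, had 1.21 and 0.74. Meg3 had 321, 256 and 313 CPM in experiment 1 WT, against 582, 563 and 399 CPM in experiment 2 WT. Imprinted genes gave 1 (without experiment 2 WT 1) to 4 higher and 2 to 8 lower calls in the leave-one-out fits, with 4 and 8 without experiment 2 WT 3. The Igfbp3 call was lost in 5, the Mirg call in 2 and the Impact call in 1 of the 6 leave-one-out fits.

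Sterol and fatty acid synthesis genes rose where they were called. Of 33 tested, 9 rose and 0 fell, with a median log2 change of 0.16. Idi1, an isomerase of the isoprenoid pathway, had 216, 218 and 265 CPM in experiment 1 WT, against 134, 136 and 156 CPM in experiment 2 WT (log2 0.71, SE 0.10, edgeR adjusted p = 0.00268). Hmgcs1, which makes HMG-CoA, had 450, 406 and 521 CPM in experiment 1 WT, against 329, 323 and 324 CPM in experiment 2 WT (log2 0.50). Cyp51 and Hsd17b7, later enzymes of the pathway, had 0.49 and 0.44. The groups did not overlap for any of these 4 genes. The count was 5 without experiment 1 WT 3 and 6 with offsets for length and GC content.

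Of 19 NRF2 targets and metallothioneins, 9 fell and 1 rose. Mt1, a metal-binding metallothionein, had 8.81, 9.53 and 9.54 CPM in experiment 1 WT, against 17.5, 15.3 and 17.1 CPM in experiment 2 WT (log2 -0.84, SE 0.09, edgeR adjusted p = 0.00163). Mt2 had -0.82 and Gstm1, a glutathione transferase, -0.48. With offsets 3 of these genes fell. Of 28 NF-kB and chemokine genes, 8 fell and 1 rose, with Icam1, a leukocyte adhesion molecule, at -1.02 and Relb, an NF-kB subunit, at -0.56. The lower count was 4 without experiment 1 WT 2, 3 with offsets and 3 in the fit over 21 fibroblast libraries. In the other libraries the Icam1 medians lay in the opposite order, at 14.9 CPM in experiment 1 and 5.02 CPM in experiment 2, scaled over all 27 libraries. Those of Relb kept the order of the WT groups, at 13.5 and 17.2 CPM.

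Glycolysis and hypoxia genes rose in 5 of 35 cases, the same 14.3% as all tested genes, and fell in 2, Gapdh and Eno2. Gapdh, often used as a reference message, had 1778, 1788 and 1714 CPM in experiment 1 WT, against 2434, 2137 and 2572 CPM in experiment 2 WT (log2 -0.44, SE 0.07, edgeR adjusted p = 0.00579). Of 35 genes of ER and amino acid stress, 5 rose and 2 fell (20% called, against 26.6% of all tested genes). Canx, an ER lectin chaperone, had 997, 1038 and 1051 CPM in experiment 1 WT, against 742, 726 and 783 CPM in experiment 2 WT (log2 0.46). Heat shock genes rose in 2 of 17 cases and fell in 1. With upper quartile scaling 0 heat shock genes rose and 2 fell. The leave-one-out fits called 5 heat shock genes higher without experiment 2 WT 3, 1 without experiment 1 WT 1, and 0 without each of the other 4 libraries. Of 17 clock genes, Clock and Nr1d2 rose and Per1 and Nr1d1 fell, each by 0.34 to 0.36 on the log2 scale in size. With offsets for length and GC content 0 clock genes rose and 0 fell. Of 11 glucocorticoid and serum response genes, 3 fell, among them Errfi1, a brake on EGF receptors, at -0.64. Leave-one-out fits gave 1 (without experiment 1 WT 1) to 7 higher and 2 to 6 (without experiment 2 WT 2) lower calls among glycolysis and hypoxia genes. Among genes of ER and amino acid stress they gave 2 (without experiment 1 WT 3) to 5 higher and 1 to 8 lower calls, with 5 higher and 8 lower without experiment 2 WT 3. The Nr1d1 and Nr1d2 calls were lost in 2 leave-one-out fits each.

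Several of the largest changes belong to no list. Lepr, the leptin receptor, had 5.62, 11.9 and 6.94 CPM in experiment 1 WT, against 0.964, 1.66 and 1.28 CPM in experiment 2 WT (log2 2.65, SE 0.33, edgeR adjusted p = 0.00219). Ucp2, a carrier of the inner mitochondrial membrane, had 55.4, 87.4 and 54.1 CPM in experiment 1 WT, against 15.8, 18.2 and 15.5 CPM in experiment 2 WT (log2 1.99, SE 0.19, edgeR adjusted p = 0.00131). Both were higher in all 3 experiment 1 WT libraries. Scaled over all 27 libraries, Ucp2 had 61.3 to 124 CPM in the other experiment 1 libraries, 165 to 177 CPM in Het-NTD, 165 to 181 CPM in Het and 11.5 to 12.9 CPM in WT-NTD, so its level within experiment 2 followed the genotype label. Its exons overlap Dnajb13 on the other strand. Zxda, a zinc finger gene of the X chromosome with a close copy, Rbm20, a splicing factor, and Prex2, an exchange factor for Rac, had log2 changes of 1.52, 1.48 and 1.47.

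Erdr1 was among the 15 lowest, with 35.2, 31.2 and 18.6 CPM in experiment 1 WT, against 81.6, 98.7 and 112 CPM in experiment 2 WT (log2 -1.78, edgeR adjusted p = 0.00215). Across the 9 other libraries of experiment 2 it ran from 0.0259 to 124 CPM, scaled over all 27 libraries. Among the most abundant called genes, Myh9, the non-muscle myosin heavy chain, Hsp90b1, an ER chaperone, and Scd2, a fatty acid desaturase, were higher by 0.35, 0.21 and 0.42 on the log2 scale. Bgn, the proteoglycan biglycan, and Rps2, of the small ribosomal subunit, were lower, at -0.28 and -0.38. The Myh9 and Bgn calls were lost in 4 and the Hsp90b1 call in 5, and the Scd2 call in 2, of the 6 leave-one-out fits. Since the kit does not mark strand, reads of Hsp90b1, Gapdh, Ube2c, Tagln, Irf7, Tap1, Gli1, Ncam1 and Vcl cannot be told apart from those of genes that overlap their exons on the other strand.

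Of the 156 named genes that were called, 105 were called in each of the 6 fits that left out 1 library, and 51 were lost in at least 1. The other fibroblast libraries gave values that the comparison had not used. Of the 2006 genes higher in experiment 1 WT, 1272 (63.4%) had all 6 other libraries of experiment 1 above all 9 other libraries of experiment 2, against 12.1% of all tested genes. Of the 1727 lower genes, 923 (53.4%) had all 6 below all 9, against 11.2% of all tested genes. The share was smaller among changes of at least 2-fold, where it was 52 of 123 higher genes (42.3%) and 10 of 230 lower genes (4.35%). A gene whose other libraries were not fully separated may still differ between them. The other libraries also differ in genotype label between the experiments, which cannot be told apart from experiment in these counts.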

How the data were processed

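The deposited table holds raw counts of reads per gene symbol for 27 libraries, which the authors made on mm10 with featureCounts 1.4.6 (Subread) after TopHat2 2.0.14 and Bowtie2 2.2.6, per the submitters' processing notes. Which annotation and strand setting the counting used is not given in the sources used here. In the range from 1 to 30, 61.5% to 64.4% of counts were even in the WT libraries, so a count may hold both reads of a fragment and is not an independent molecule. Library totals ranged from 29730693 to 69517834 counts.

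The 6 WT fibroblast libraries were filtered with filterByExpr, scaled by TMM and tested with edgeR 4.0.16 (robust glmQLFit and glmQLFTest, 4 residual degrees of freedom) with Benjamini-Hochberg adjustment over all 14046 genes at a threshold of 0.05. CPM are on TMM-scaled library sizes, and errors of log2 changes are standard errors of the fit. With 3 libraries a group, the smallest two-sided p of an exact permutation test is 0.1, so none was used. The fit was tested on simulated data. DESeq2 1.42.0, other scalings and filters, a fit over 21 libraries and leave-one-out fits were alternatives.

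Coordinates, exon lengths, GC content and transcripts came from GENCODE M21 (GRCm38) for 23617 of 24062 symbols, and promoters from RefSeq (GRCm38.p6), 250 bases before to 50 after each start. Named genes were Foxm1, the 15 highest and 15 lowest log2 changes among called genes of average log2 CPM 1 or more, no overlap between groups and an established symbol, the 5 most abundant called genes in each direction, and up to 4 genes of each list by p. A few list members outside that rule were named after their values were seen. The members and lists were chosen with earlier results of these data known. Replicate numbers do not pair libraries across the experiments.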

Additional observations from a re-analysis of the deposited data

How the results depend on the processing

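Leaving out 1 library at a time gave 1221 to 1654 higher and 915 to 1414 lower genes, with 77 to 116 and 130 to 222 of them by at least 2-fold. A filter at an average log2 CPM of 1 left 40 higher and 98 lower genes past 2-fold. A fit over 21 fibroblast libraries called 117 genes lower by at least 2-fold, and 127 once the macrophage score was a covariate. Offsets for exon length and GC content, chosen after the data were seen, called 884 higher and 898 lower genes. With the replicate number as a block, 1119 genes were higher and 836 lower, 73 and 129 of them by at least 2-fold; same-numbered libraries had correlations of 0.05, -0.12 and -0.12 between their deviations, so the numbers do not pair them. Among named genes called in either fit, those of changed sign under the macrophage covariate were Lyz2 (0.23), Ctss (0.23), Lrrn4 (0.055) and Cd36 (0.90). Under the offsets it was Hmox1 (0.025). Lyz2 and Ctss are themselves members of the macrophage score. With that covariate the median log2 change of the macrophage markers was 0.06, so markers not named here also changed sign. The cause of these shifts was not tested.

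DESeq2 called 4092 genes, TMM replaced by DESeq2 size factors 3697, no filter 3495, libraries thinned to the smallest total 3669, and the table without Rn45s and histone genes 3728, against 3733. Over all tested genes in place of 500, the distance was 0.572 between the WT groups, and 0.422 within them. Counts below about 1 CPM limit the histone and cell type genes named at that level.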

Other observations

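In the 6 lung libraries, which enter no comparison here, the share of counts taken by Rn45s varied within a genotype label. It was 0.951%, 2.81% and 0.905% in the Het lungs, and 4.82%, 5.09% and 0.911% in the WT lungs.

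Trim12a, a member of the TRIM family, had no counts in 1 WT library. It had 1.91, 0 and 1.78 CPM in experiment 1 WT, against 6.03, 4.98 and 4.55 CPM in experiment 2 WT, scaled over all 27 libraries. Its log2 change was -2.12 with an SE of 0.87 and an edgeR adjusted p of 0.106. It was chosen after its values were seen.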
